A study of Mus musculus with 106 samples.

Results

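The transcripts of 7 mouse genes that build one trans-synaptic bridge were followed through neuron types of the cerebrum and cerebellum in Huntington's disease (HD) mice. They are the cerebellins *Cbln1*, *Cbln2*, *Cbln3* and *Cbln4*, the GluD receptor gene *Grid1*, and the neurexins *Nrxn2* and *Nrxn3*. The genes were taken by name from the count table, which lists 55401 mouse genes. Cerebellins are small secreted proteins of the C1q family that assemble into multimers. Released from a presynaptic cell, they bind neurexins in the presynaptic membrane and GluD receptors in the postsynaptic membrane, and so hold the sides of a synapse together. In the cerebellum the best-known example is the synapse of granule cell parallel fibres onto Purkinje cells, for which granule cells supply the cerebellin.

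The study asked how ribosome-bound mRNA of defined neuron types differs between HD and control mice before motor signs appear. Ribosomes carrying an HA tag were immunoprecipitated (IP) from 1 hemisphere, and total RNA of the same tissue was sequenced from some of the mice. The 106 libraries came from 45 mice and comprised 67 IPs and 39 total RNA libraries. Cerebellum was processed apart from cerebrum, which here is the brain without cerebellum and olfactory bulb.

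HD mice were knock-in Hdh Q7/Q200 heterozygotes and controls were Hdh Q7/Q7 mice. In the cohorts that the paper describes they were littermates of both sexes, at about 9 months of age. All mice, controls included, were on the 129S4 background and carried 1 Cre allele and 1 allele of the RiboTag transgene, which adds HA to the ribosomal protein Rpl22 in Cre-expressing cells. The Gad2 line marks GABAergic cells, the vGluT2 line marks cells that use the vesicular glutamate transporter vGluT2, the PV line marks parvalbumin cells and the SST line marks somatostatin cells. Each PV library pooled duplicate IPs. The paper does not describe the SST line, nor the age, sexes or littermate status of its mice. By their labels, control SST libraries came from mice named BR or Z, and HD SST libraries only from mice named BR. A Cre line marks every cell that has expressed its driver, so 1 line holds several cell types. The IPs comprised 6 control and 6 HD libraries for cerebral Gad2+, cerebellar Gad2+ and cerebral vGluT2+ cells. There were 6 control and 5 HD libraries for PV+ cells, 5 control and 4 HD for SST+ cells, and 5 control and 6 HD for cerebellar vGluT2+ cells. Total RNA comprised 3 libraries per line, region and genotype, except 4 control libraries of the SST line and 4 of each genotype from the vGluT2-line cerebellum. One HD library each of cerebellar Gad2+, cerebral vGluT2+ and PV+ cells was sequenced again and is called the re-sequenced HD library.

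Libraries held 21905221 to 107753586 counts, with a median of 35866725. In the cerebellar vGluT2+ IP, the group that carries most of what follows, totals ran from 34229855 to 40085593 in control and from 30077290 to 44073911 in HD libraries. Levels are given as CPM, counts per 1000000 normalised over all 106 libraries. Folds are log2 values with their standard error (SE) from edgeR's quasi-likelihood test, and a gene is called at an adjusted p of 0.05 or less over all protein-coding genes tested in that comparison. All 7 genes passed the filter on low counts in all 23 comparisons. For 2 genes of the cerebrum, *Cbln2* and *Cbln4*, the cerebellar libraries held few counts (0 to 985 for *Cbln2*), so their cerebellar folds are imprecise.

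The labels fit the markers that define each Cre line, though the PV and SST IPs also held markers of other cells. In control means, the summed level of *Gad1*, *Gad2* and *Slc32a1* was 2737 CPM in the cerebral and 2995 in the cerebellar Gad2+ IP, against 81.8 and 183 in the vGluT2+ IPs of those regions. The glutamatergic pair *Slc17a6* and *Slc17a7* summed to 2175 in cerebral and 1406 in cerebellar vGluT2+ cells, against 239 and 152 in Gad2+ cells. *Pvalb* was higher in the PV than in the SST IP (615 against 145), and *Sst* was higher in the SST than in the PV IP (1326 against 97.8). The GABAergic sum was 2565 CPM in the PV and 1341 in the SST IP. These IPs also held glutamatergic markers (947 in PV and 892 in SST). Oligodendrocyte markers reached 3163 in the SST and 1895 in the PV IP. Astrocyte markers summed to 1880 in the SST IP and 1336 in the PV IP, against 1775 and 1642 in control total RNA of those lines. No defining marker was at 0.

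Some cerebral libraries stood apart in *Cbln3*, and several of them also in cerebellar markers. HD PV library 3 held 203 CPM of *Cbln3* and 150.1 of *Cbln1*, with a granule cell marker sum of 603 against 223 to 270.0 in the other HD PV libraries and a Purkinje cell sum of 1773. Control PV library 2 held 88.8 CPM of *Cbln3* with a Purkinje cell sum of 699.7. HD cerebral Gad2 library 2 had the highest *Cbln3* of its group (7.62). Its Purkinje cell sum was 706, against 191 to 369 in the others of that group. HD SST library 2 (23.3), HD cerebral vGluT2 libraries 1 and 4 (30.8 and 26.8), and 1 cerebral total RNA library in several groups (47.0 to 64.0) were also high in *Cbln3*. The Purkinje cell sums of the 2 vGluT2 libraries were 196.7 and 190.4, against 191.5 to 266.6 in the others of their group. Their granule cell sums were 296 and 212, against 201 to 279. Each of those total RNA libraries had the highest granule cell sum (382 to 444) and Purkinje cell sum (161 to 213) of its group. So had HD SST library 2 (323 and 258). Cerebral *Cbln3* values, and the HD fold of *Cbln1* in PV+ cells, therefore rest on few libraries. In the cerebellum the reverse was seen for *Cbln2* and thalamic markers. Control cerebellar vGluT2 library 5 held 25.2 CPM of *Cbln2* and a thalamic marker sum of 214, against at most 2.74 and 47.2 in the other 4 control libraries. In vGluT2-line control cerebellar total RNA, library 4 held 15.6 and 125, against at most 1.03 and 19.4. Among HD cerebellar vGluT2 IPs, library 5 held 7.44 and 98.6, against at most 1.89 and 30.2. Where these signals came from was not tested.

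The 4 cerebellin genes are compact and the receptor and neurexin genes are long (GENCODE M21 on GRCm38.p6). *Cbln1* (ENSMUSG00000031654.16) lies on chromosome 8, 87468405 to 87472609, minus strand. *Cbln2* (ENSMUSG00000024647.14) lies on chromosome 18, 86711110 to 86718283, plus strand, and *Cbln3* (ENSMUSG00000040380.14) on chromosome 14, 55878913 to 55884392, minus strand. *Cbln4* (ENSMUSG00000067578.3) lies on chromosome 2, 172036233 to 172043466, minus strand. No exon of another gene overlaps the exons of a cerebellin gene. *Grid1* (ENSMUSG00000041078.7) spans 34820108 to 35583379 of chromosome 14, plus strand. *Nrxn2* (ENSMUSG00000033768.17) spans 6418731 to 6544169 of chromosome 19 and *Nrxn3* (ENSMUSG00000066392.12) spans 88722876 to 90334935 of chromosome 12, both on the plus strand. Exons of other genes overlap those of *Nrxn2* over 889 bases and of *Nrxn3* over 439 bases on the opposite strand, and of *Grid1* over 91 bases on the same strand.

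Between genes, the order of levels turned over from cerebrum to cerebellum. Per kilobase of the longest transcript, cerebellins led in control cerebellar vGluT2+ cells, with *Cbln3* at 975 CPM per kilobase and *Cbln1* at 897, ahead of *Nrxn2* at 144 and *Nrxn3* at 46.6. There *Cbln2* (2.33), *Grid1* (2.31) and *Cbln4* (1.48) were low. In cerebral vGluT2+ cells *Nrxn2* led instead, at 79.5 CPM per kilobase, with *Nrxn3* at 24.4, *Cbln2* at 20.9, *Cbln1* at 19.8, *Grid1* at 15.5, *Cbln4* at 10.4 and *Cbln3* at 0.692. *Nrxn2* was highest of the 7 in every cerebral group, and *Cbln3* then *Cbln1* in the cerebellar vGluT2+ IP and cerebellar total RNA, under each of 3 measures of transcript length. The places behind *Nrxn2* in cerebral vGluT2+ cells changed with the measure: *Cbln2* and *Cbln1* lay above *Nrxn3* by the exon union, and *Grid1* above it by the median transcript. In the cerebellar Gad2+ IP *Cbln3* was highest under 2 of the 3 measures and *Nrxn2* under the median transcript length. That IP also held granule cell markers, with a control mean sum of 941 CPM against 6428 in the cerebellar vGluT2+ IP. The part of granule cell RNA in its *Cbln1* and *Cbln3* levels was not tested.

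*Cbln1*, the cerebellin that granule cells release, had its highest control level in cerebellar vGluT2+ cells. Its mean was 2512 CPM there (1841 to 3433), 1095 in cerebellar total RNA (761 to 1323) and 208 in cerebellar Gad2+ cells (152 to 229). Cerebral means were 66.4 in PV+ cells (49.8 to 94.6), 55.6 in vGluT2+ cells (47.4 to 66.6), 50.03 in total RNA (32.5 to 75.1), 31.6 in SST+ cells (26.7 to 35.3) and 11.1 in Gad2+ cells (8.47 to 16.2). The 3 cerebellar groups did not overlap each other or the cerebral ones. Among the cerebral groups, only Gad2+ cells stood below their neighbour without overlap.

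*Cbln3*, a cerebellin found in granule cells, was more sharply divided between the regions. Control means were 4746 CPM in cerebellar vGluT2+ cells (3638 to 5441), 2113 in cerebellar total RNA (1801 to 2632) and 424 in cerebellar Gad2+ cells (286 to 524). In the cerebrum they were 21.4 in PV+ cells (2.28 to 88.8), 13.01 in SST+ cells (3.77 to 22.8), 9.73 in total RNA (1.5003 to 53.6), 3.37 in vGluT2+ cells (0.324 to 9.28) and 1.91 in Gad2+ cells (0.207 to 4.16). The cerebellar groups did not overlap, while every cerebral group overlapped the next.

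*Cbln2* and *Cbln4*, cerebellins of forebrain neurons, had the opposite regional order. *Cbln2* was highest in cerebral vGluT2+ cells at a mean of 53.3 CPM (46.3 to 65.9), apart from all others. It followed in cerebral total RNA at 28.9, SST+ cells at 28.6, Gad2+ cells at 23.3 and PV+ cells at 17.4. Those neighbours overlapped. The cerebellar means were 5.93 in vGluT2+ cells, 2.90 in total RNA and 0.470 in Gad2+ cells, each resting on 1 library. The highest of the others was 2.74 without vGluT2 library 5 (25.2), 1.97 without vGluT2-line total RNA library 4 (15.6) and 0.4665 without Gad2 library 5 (2.20). *Cbln4* was highest in SST+ cells at 32.8 CPM (28.9 to 39.3), followed by cerebral vGluT2+ cells at 30.3, Gad2+ cells at 27.5, PV+ cells at 24.3 and cerebral total RNA at 22.8, each overlapping the next. The step down to the cerebellum was without overlap, to 4.29 in vGluT2+ cells, 1.74 in total RNA and 1.16 in Gad2+ cells. The highest was 1.53 without vGluT2-line total RNA library 4 (6.22) and 1.05 without Gad2 library 5 (3.96).

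*Grid1* encodes GluD1, the receptor side of the bridge. Its control level was highest in cerebellar Gad2+ cells at 110.3 CPM (97.4 to 127) and lowest in cerebellar vGluT2+ cells at 13.2 (8.71 to 20.2). The cerebral means were close together: Gad2+ cells 91.6, vGluT2+ cells 88.5, SST+ cells 85.3, PV+ cells 79.4 and total RNA 75.6, all overlapping their neighbours. Cerebellar total RNA was at 39.5 (33.7 to 44.9), below all cerebral total RNA and above all cerebellar vGluT2+ libraries.

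The neurexins, the presynaptic receptors for cerebellins, varied least. *Nrxn2* was highest in cerebellar vGluT2+ cells at 963 CPM (834 to 1104), apart from all other groups. Those lay between 429 in cerebellar Gad2+ cells and 582 in cerebellar total RNA, each overlapping the next. *Nrxn3* ran from 381 in cerebellar Gad2+ cells (298 to 442) and 369 in cerebellar vGluT2+ cells (313 to 408) down to 194 in cerebral vGluT2+ cells (107 to 237) and 115 in cerebral total RNA (70.5 to 166), with every group overlapping the next.

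**Figure D1:**
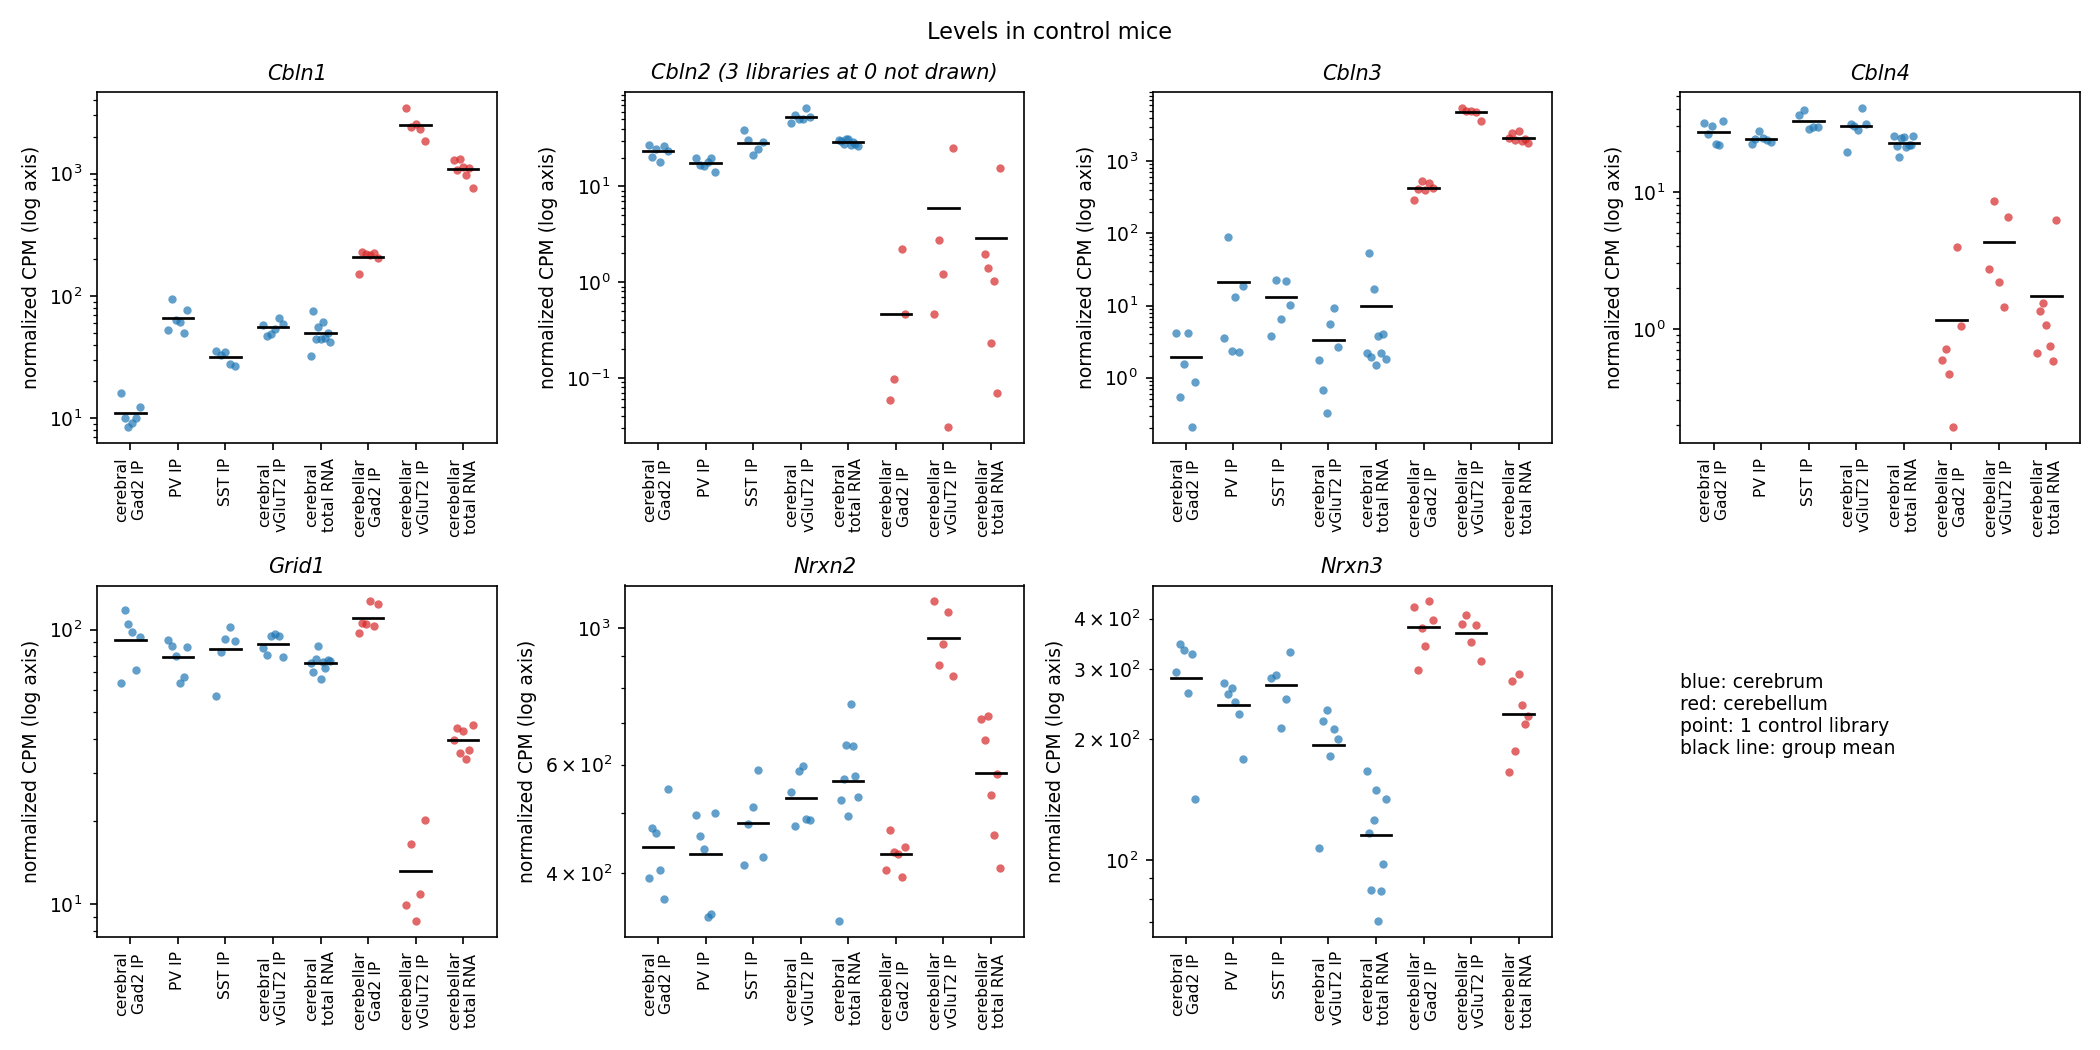
Levels in control mice of each of the 7 genes (y axis, CPM on a log scale) by group (x axis), blue for cerebrum and red for cerebellum; each point is 1 library, the black line is the group mean, and libraries at 0 are not drawn. *Cbln1* and *Cbln3* peak in cerebellar vGluT2+ cells (means 2512 and 4746), *Cbln2* and *Cbln4* are higher in the cerebrum, and *Grid1* is lowest in cerebellar vGluT2+ cells (13.2).

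Across the 8 control group means (6 IPs and total RNA of both regions), the cerebellins formed pairs. The Pearson correlation of log2(CPM + 1) was 0.963 between *Cbln1* and *Cbln3* and 0.960 between *Cbln2* and *Cbln4*, and −0.941 between *Grid1* and *Nrxn2*. These are descriptions over 8 means that share libraries' tissue and depth. Of 12266 genes ranked, those most like *Cbln3* were *Gabra6* (0.998), a GABA receptor subunit of granule cells, and *Fat2* (0.997), and 136 genes exceeded 0.95. Those most like *Cbln1* were *Ajm1* (0.988) and *Barhl2* (0.987). *Cbln2* was most like *Fosl2* (0.991) and *Atp2b4* (0.989), and *Cbln4* most like *Ttll11* (0.994) and *Lzts1* (0.993). *Grid1* was nearest to *P4ha2* (0.993) and *Fam84a* (0.986). *Nrxn2* was nearest to *Plat* (0.983) and *Trmt44* (0.967), and *Nrxn3* to *Pde12* (0.991) and *Rngtt* (0.977).

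To ask which cells supply each transcript within a region, IPs of both genotypes were compared with total RNA of the region, with genotype in the fit. For the cerebrum this total RNA was the 18 libraries of the Gad2, PV and vGluT2 lines, and the 7 of the SST line entered as an alternative. In the cerebellum, *Cbln1* and *Cbln3* mRNA was enriched on ribosomes of vGluT2+ cells and depleted on those of Gad2+ cells, and *Grid1* mRNA showed the reverse. *Cbln2* and *Cbln4* were called in neither of these cerebellar IPs, and *Nrxn3* was enriched in both of them.

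In cerebellar vGluT2+ cells, 4 of the 7 genes were enriched and 1 was depleted, where 68.3% of all genes tested were called. *Cbln1* ran from 761 (median 1115) to 1323 CPM in the 14 total RNA libraries and from 1338 (median 1841) to 3433 in the 11 IPs. No library overlapped, and the IP was higher by 0.77 (SE 0.100, adjusted p 1.67e-07). *Cbln3* ran from 1298 (median 1812) to 2632 in total RNA and from 2467 (median 2868) to 5441 in the IP, with all 11 IPs above the total RNA mean (0.88, SE 0.0827, adjusted p 4.37e-10). *Grid1* was 29.6 (median 35.9) to 44.9 in total RNA and 8.71 (median 11.1) to 20.2 in the IP. It was 3.003-fold lower in the IP without overlap (−1.59, SE 0.142, adjusted p 1.81e-10). *Nrxn3* (0.71, adjusted p 3.78e-05) and *Nrxn2* (0.32, adjusted p 0.00809) were higher in all 11 IPs than the total RNA mean. With the mouse as a replicate block *Nrxn2* was not called (0.22, adjusted p 0.274, with alternatives from 0.00454 to 0.274). *Cbln4* was just short (0.96, adjusted p 0.0633) and *Cbln2* was not called. *Cbln4* was called without control library 4 (1.05, 0.0467), HD library 1 (1.08, 0.0428), HD library 2 (1.12, 0.0332) or HD library 4 (1.06, 0.0410). Leaving out 1 IP gave 0.0332 to 0.151, and no total RNA library was left out.

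In cerebellar Gad2+ cells, 2 of the 7 genes were enriched and 3 depleted, against 67.4% of all genes called. *Cbln1* was 152 (median 185) to 229 CPM in the 12 IPs, 5.83-fold below total RNA (−2.54, SE 0.0987, adjusted p 2.96e-18). *Cbln3* was 219 (median 377) to 524 in the IPs (−2.32, SE 0.104, adjusted p 4.59e-17). Neither overlapped total RNA. *Grid1* was 83.3 (median 113) to 129 in the IPs, 3.05-fold above total RNA without overlap (1.61, SE 0.0798, adjusted p 3.45e-16). *Nrxn3* was enriched (0.93, adjusted p 1.16e-07) and *Nrxn2* depleted (−0.62, adjusted p 3.77e-06). *Cbln2* and *Cbln4*, near 0 in these libraries, were not called.

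In the cerebrum, *Cbln1* and *Cbln2* were set apart by cell type, and *Nrxn3* was enriched in all 3 inhibitory groups. In Gad2+ cells 3 of the 7 genes were enriched and 3 depleted (63.5% of all genes called). *Cbln1* was 27.5 (median 45.1) to 82.7 CPM in the 18 total RNA libraries and 7.996 (median 11.9) to 16.2 in the 12 IPs, without overlap (−2.07, SE 0.158, adjusted p 9.16e-13). *Cbln2* was also depleted (−0.44, adjusted p 3.16e-05), with 12 of 12 IPs below the total RNA mean. *Nrxn3* was 56.998 (median 121) to 181 in total RNA and 117 (median 277) to 347 in the IPs (1.01, adjusted p 6.67e-05). *Cbln4* was enriched by 0.36 (adjusted p 0.00217). *Grid1* was enriched by 0.22 (adjusted p 0.0202), a call lost against total RNA of the same line (0.195), with the mouse block (0.258) or without control library 2 (0.17, 0.0585), over alternatives from 0.00797 to 0.258. The depletion of *Cbln3* (−2.53, adjusted p 0.00899) rests on a few high total RNA libraries. It was −0.21 in DESeq2 (adjusted p 0.728) and −1.59 with the mouse block (0.0615), over alternatives from 0.00423 to 0.728.

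In PV+ cells 3 of the 7 genes were enriched and 2 depleted (73.2% of all genes called). *Nrxn3* was 179 (median 248) to 277 CPM in the 11 IPs, all above the total RNA mean (1.11, SE 0.159, adjusted p 4.44e-07). *Cbln2* was 11.5 (median 17.9) to 19.7, below every total RNA library (−0.67, SE 0.0868, adjusted p 6.87e-08). *Cbln1* was 49.5 (median 55.1) to 150.1 and enriched by 0.61 (adjusted p 0.00263). Without HD library 3 the *Cbln1* fold was 0.40 (adjusted p 0.0174, the highest of those leaving out 1 IP). Against total RNA of the PV line alone it was 0.44 (adjusted p 0.0908, alternatives from 0.00131). *Cbln3* was not called (1.46, adjusted p 0.135) and was −0.02 without HD library 3 (0.987, where leaving out 1 IP gave from 0.103). With the mouse block *Cbln3* was called (1.59, adjusted p 0.00189, alternatives to 0.358).

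The remaining PV+ calls were small. *Grid1* was enriched by 0.16 (adjusted p 0.0455) and *Nrxn2* depleted by −0.23 (adjusted p 0.0403). The *Grid1* call was lost against the same line (0.114) and with the mouse block (0.172), over alternatives from 0.0182. It was also lost without control library 1 (0.12, 0.115), 2 (0.14, 0.0838), 3 (0.16, 0.0617) or 6 (0.15, 0.0676), or HD library 2 (0.15, 0.0720), 3 (0.15, 0.0673) or the re-sequenced one (0.12, 0.122). The *Nrxn2* call was lost in DESeq2 (0.0553), with its size factors (0.0573) and without TMM (0.0832), over alternatives from 0.00356. It was lost without control library 3 (−0.24, 0.0506), 4 (−0.21, 0.0627) or 5 (−0.21, 0.0619), or HD library 1 (−0.20, 0.0841), 2 (−0.23, 0.0526) or 5 (−0.23, 0.0552).

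In SST+ cells 3 of the 7 genes were enriched and 1 depleted (65.2% of all genes called). *Cbln4* was 17.9 (median 21.9) to 26.3 CPM in the 18 total RNA libraries of the other lines and 24.3 (median 29.8) to 39.3 in the 9 IPs, with 8 of them above all 18 (0.65, SE 0.0919, adjusted p 1.34e-06). Total RNA of the SST line itself was 25.1 to 28.4 in control and 15.7 to 21.9 in HD mice, and against it the fold was 0.55 (adjusted p 0.000571, alternatives from 5.29e-10). *Nrxn3* was higher in 9 of 9 IPs than the total RNA mean (1.19, adjusted p 5.36e-06), and *Cbln1* was lower in 9 of 9 (−0.53, adjusted p 0.00314). *Grid1* was enriched by 0.22 (adjusted p 0.0327). That call was lost against the same line (0.165) and with the mouse block (0.263), over alternatives from 0.00513. It was lost without control library 2 (0.21, 0.0501), 3 (0.20, 0.0600), 4 (0.17, 0.0928) or 6 (0.19, 0.0676) or HD library 1 (0.19, 0.0798).

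In cerebral vGluT2+ cells 1 of the 7 genes was enriched and none depleted (63.6% of all genes called). *Cbln2* was 24.0 (median 28.9) to 31.6 CPM in total RNA and 27.9 (median 49.98) to 65.9 in the 12 IPs, of which 11 lay above every total RNA library (0.67, SE 0.0856, adjusted p 6.07e-08). *Cbln4* was just short (0.29, adjusted p 0.0515). It was called without control library 1 (0.33, 0.0257), HD library 4 (0.31, 0.0423) or the re-sequenced HD library (0.38, 0.000835), where leaving out 1 IP gave up to 0.107. *Nrxn3* was 0.36 (adjusted p 0.0789), and called without HD library 1 (0.43, 0.0328, others up to 0.141). *Grid1* was 0.10 (adjusted p 0.167), and called without the re-sequenced HD library (0.14, 0.0385, others up to 0.213). *Cbln1* was 0.28 (adjusted p 0.103) and was called against the same line (0.52, 0.0106) and with the mouse block (0.47, 0.0102), over alternatives up to 0.163.

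Control IPs were then compared with each other. Within the cerebellum, cells on the glutamatergic side held the ligand mRNAs and cells on the GABAergic side the receptor mRNA. Of the 7 genes, 5 were higher and 1 lower in vGluT2+ than in Gad2+ cells, where 56.4% of all genes were called. *Cbln1* was 3433, 2401, 2557, 2325 and 1841 CPM in vGluT2+ libraries 1 to 5 and 152 (median 218) to 229 in Gad2+ libraries, 11.8-fold apart (3.56, SE 0.160, adjusted p 2.74e-10). *Cbln3* was 5441, 4993, 4937, 4722 and 3638 against 286 (median 421) to 524, 10.97-fold apart (3.45, SE 0.162, adjusted p 3.55e-10). *Grid1* was 9.93, 16.5, 8.71, 10.9 and 20.2 against 97.4 (median 105) to 127, 8.44-fold lower (−3.08, SE 0.218, adjusted p 1.82e-08). *Nrxn2* was 2.20-fold higher in vGluT2+ cells (1.14, adjusted p 1.78e-07). None of these 4 overlapped. *Nrxn3* overlapped (−0.07, adjusted p 0.636).

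*Cbln2* and *Cbln4* were also called there, from low levels. *Cbln2* was 0.465, 2.74, 1.22, 0.0306 and 25.2 CPM against 0 (median 0.0784) to 2.20 (3.74, adjusted p 0.0261). Without vGluT2 library 5 it was 1.23 (0.399), without Gad2 library 2 3.46 (0.0524) and without Gad2 library 3 3.50 (0.0529). DESeq2 gave 3.61 (0.0535) and HD mice 1.10 (0.483), over alternatives from 0.0178. *Cbln4* was 2.71, 8.51, 2.19, 1.44 and 6.60 against 0.191 (median 0.649) to 3.96 (1.89, adjusted p 0.0240). It was not called without Gad2 library 2 (1.74, 0.0533), Gad2 library 3 (1.72, 0.0506), vGluT2 library 2 (1.44, 0.0959) or vGluT2 library 5 (1.63, 0.0634). HD mice gave 1.39 (0.0681, alternatives from 0.00665). Without Gad2 library 5 the folds were 5.50 for *Cbln2* and 2.81 for *Cbln4*.

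In the cerebrum, vGluT2+ cells held more *Cbln1* and *Cbln2* than Gad2+ cells. Of the 7 genes, 2 were higher and none lower in vGluT2+ than in Gad2+ cells, where 29.8% of all genes were called. *Cbln1* was 47.4 (median 55.8) to 66.6 CPM against 8.47 (median 10.1) to 16.2, 4.95-fold apart (2.31, SE 0.161, adjusted p 2.66e-08). *Cbln2* was 46.3 (median 51.5) to 65.9 against 17.96 (median 23.9) to 27.2, 2.26-fold apart (1.18, SE 0.122, adjusted p 2.10e-06). Neither overlapped. *Cbln4* was not called (0.12, SE 0.157, adjusted p 0.613). *Nrxn3* was lower by a size just short of the call (−0.57, adjusted p 0.0514). It was called without Gad2 library 6 (−0.70, 0.0065) or vGluT2 library 3 (−0.63, 0.0486), where leaving out 1 library gave up to 0.114. *Nrxn2* (0.25, adjusted p 0.0982) was called without Gad2 library 6 (0.33, 0.0242, others up to 0.182).

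The interneuron IPs differed in the ligands and not, by a call, in receptor or neurexins. Of the 7 genes, 1 was higher and 2 were lower in PV+ than in SST+ cells, where 18.2% of all genes were called. *Cbln1* was 49.8 (median 62.6) to 94.6 CPM in PV+ libraries and 35.3, 33.1, 34.9, 27.8 and 26.7 in the 5 SST+ libraries, 2.10-fold apart (1.07, SE 0.157, adjusted p 0.000351). *Cbln2* was 14.1 (median 17.4) to 19.7 against 38.3, 30.2, 21.1, 24.5 and 29.1 (−0.71, SE 0.153, adjusted p 0.00501). *Cbln4* was 22.2 (median 24.1) to 27.8 against 36.5, 39.3, 28.9, 29.8 and 29.6 (−0.44, SE 0.111, adjusted p 0.0142). None of the 3 overlapped. In HD mice the *Cbln4* difference was −0.62 and not called (0.152, alternatives from 0.00363). Against cerebral Gad2+ cells, PV+ cells held more of 2 of the 7 genes and less of none (58% of all genes called). *Cbln1* was 6.48-fold higher without overlap (2.70, SE 0.187, adjusted p 3.15e-08). *Cbln3* was higher by 3.58 (adjusted p 0.00411), and by 2.13 without PV library 2 (0.0189). The control PV IP also held more glutamatergic (947 against 239 CPM), thalamic (141 against 37.3) and astrocyte (1336 against 477) marker RNA than the cerebral Gad2+ IP. Its Purkinje cell (252 against 368) and microglial (53.1 against 85.4) sums were lower. The part of other cells' RNA in these differences was not tested.

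*Cbln2* was just short between PV+ and cerebral Gad2+ cells (−0.30, adjusted p 0.0576). It was called in DESeq2 (0.0192) and with its size factors (0.0274), over alternatives up to 0.181. It was also called without Gad2 library 4 (−0.37, 0.0167) or 5 (−0.34, 0.0349), or PV library 1 (−0.34, 0.0446), 5 (−0.42, 0.0186) or 6 (−0.31, 0.0364).

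Between regions, control cells of the same line differed most in the ligands. *Cbln1* and *Cbln3* were higher in cerebellum and *Cbln2* and *Cbln4* higher in cerebrum in each of the 3 comparisons, all without overlap. *Grid1* was lower in cerebellum in vGluT2+ cells and total RNA. Between Gad2+ IPs, 2 of the 7 genes were higher and 2 lower in cerebellum (51.1% of all genes called). *Cbln1* was 18.7-fold (4.23, SE 0.177, adjusted p 1.47e-11) and *Cbln3* 215-fold higher (7.75, SE 0.556, adjusted p 7.87e-09). *Cbln2* (−5.81, adjusted p 5.81e-06) and *Cbln4* (−4.64, adjusted p 1.23e-06) were lower, by −7.46 and −5.49 without cerebellar Gad2 library 5. *Nrxn3* (0.41, adjusted p 0.0711) was called without cerebellar Gad2 library 2 (0.48, 0.0410, others up to 0.118), and in HD mice (0.86, 0.0208, alternatives up to 0.160). *Grid1* (0.26, adjusted p 0.147) was called in HD mice (0.44, 0.0163, alternatives up to 0.385).

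Between vGluT2+ IPs all 7 genes were called, 4 higher and 3 lower in cerebellum, against 63.2% of all genes. *Cbln1* was 43.5-fold higher (5.44, SE 0.165, adjusted p 1.35e-11). *Cbln3* was higher by 10.42 (adjusted p 5.42e-08), from cerebral levels of 0.324 (median 2.22) to 9.28 CPM, and by 11.08 without cerebral vGluT2 library 5. *Nrxn2* (0.80, adjusted p 1.24e-05) and *Nrxn3* (0.87, adjusted p 0.000463) were also higher, without overlap. *Grid1* was 6.88-fold lower (−2.78, SE 0.220, adjusted p 9.27e-08). *Cbln4* (−2.85, adjusted p 3.45e-05) and *Cbln2* (−3.17, adjusted p 0.00851) were lower, *Cbln2* by −5.64 without cerebellar vGluT2 library 5.

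In total RNA of the Gad2 and vGluT2 lines, 3 of the 7 genes were higher and 3 lower in cerebellum (58.2% of all genes called). *Cbln1* was 23.8-fold (4.57, adjusted p 7.80e-10) and *Cbln3* 311-fold higher (8.28, adjusted p 1.64e-05), *Cbln3* by 9.84 without cerebral Gad2-line library 2. *Nrxn3* was higher by 1.03 (adjusted p 0.00194), and in HD mice by 0.37 without a call (0.244, alternatives from 4.25e-05). *Grid1* was lower without overlap (−0.88, SE 0.104, adjusted p 1.07e-05). *Cbln2* (−3.53, adjusted p 0.0112) and *Cbln4* (−3.72, adjusted p 6.11e-05) were lower, by −5.23 and −4.48 without cerebellar vGluT2-line library 4. *Nrxn2* was not called in control mice (0.18, adjusted p 0.275) and was in HD mice (0.67, 0.00182, alternatives up to 0.353). Mice were shared between regions. Taking the mouse as a replicate block changed no call between the Gad2+ IPs or between the vGluT2+ IPs, and was not run for total RNA.

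The HD question was asked in each IP and in total RNA of each region. Both cerebellins of cerebellar granule cells fell in cerebellar vGluT2+ cells of HD mice. *Cbln3* was 1.74-fold and *Cbln1* 1.53-fold lower, while *Grid1* and the neurexins were not called. Of the 7 genes, 2 were called, both down, where 2.11% of all 13487 genes tested were called (124 up and 161 down). The median fold of the 7 was −0.14 against −0.01 over all genes. The count of 285 genes called was 663 in DESeq2, 109 with the replicate block and 178 with the *Xist* covariate. It was 149, 173, 169 and 188 without control libraries 1 to 4, and 152 and 173 without HD libraries 1 and 5.

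*Cbln3* was 5441, 4993, 4937, 4722 and 3638 CPM in control libraries 1 to 5 (mean 4746, SD 672) and 2467 (median 2673) to 2868 in the 6 HD libraries (mean 2664, SD 155). Every HD library lay below every control library, and control library 5 was the lowest of its group. The fold was −0.80 (SE 0.0858, adjusted p 0.000339, 95% interval −0.97 to −0.63). It was called under every alternative, from −0.85 to −0.77 (adjusted p 1.54e-13 to 0.0148, the highest with the replicate block), and without any 1 library (−0.87 to −0.75, adjusted p 0.000127 to 0.00198). Whether fewer cells of a type or less RNA per cell lies behind a lower level cannot be told apart in such libraries.

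*Cbln1* was 3433, 2401, 2557, 2325 and 1841 CPM in the control libraries (mean 2512, SD 580.2) and 1338 (median 1565) to 1855 in HD libraries (mean 1601, SD 194). All 6 HD libraries were below the control mean and 5 below every control library, with 1 HD library just above control library 5. The fold was −0.61 (SE 0.135, adjusted p 0.0316). The call was lost with no filter (0.0512), the replicate block (0.0999) and the *Xist* covariate (0.0684), and kept in DESeq2 (0.00131), which are the ends of the range 0.00131 to 0.0999. It was lost without control library 1 (−0.48, 0.0699), 2 (−0.63, 0.0611), 3 (−0.61, 0.0717) or 4 (−0.63, 0.0528), and without HD library 1 (−0.59, 0.0834), 3 (−0.59, 0.0603), 5 (−0.57, 0.0718) or 6 (−0.63, 0.0652). The direction held throughout.

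The other 5 genes were not called in cerebellar vGluT2+ cells. *Grid1* was 9.93, 16.5, 8.71, 10.9 and 20.2 CPM in control and 9.27 (median 11.3) to 19.8 in HD libraries (−0.04, SE 0.252, adjusted p 0.955). *Nrxn2* (−0.14, SE 0.121, adjusted p 0.626) and *Nrxn3* (−0.13, SE 0.134, adjusted p 0.686) overlapped. *Cbln4* (−0.11, SE 0.560, adjusted p 0.947) and *Cbln2* (−1.93, SE 1.35, adjusted p 0.527) were too low to place, and *Cbln2* was 0.56 without control library 5. *Grid1* turned positive without control library 2 (0.0425) or 5 (0.19) or HD library 2 (0.0334) or 6 (0.0214), and *Cbln4* without control library 2 (0.28) or 5 (0.13) or HD library 1 (0.00328), 2 (0.0717) or 4 (0.0805).

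Granule cell markers moved in the same direction in these libraries. Their sum was 6294, 6494, 6815, 7460 and 5077 CPM in control libraries 1 to 5 and 5369, 4391, 5713, 4145, 5135 and 3593 in HD libraries 1 to 6, from means of 6428 to 4724. Of the 6 markers 1 was called. *Neurod1* fell by 0.87 (adjusted p 0.00914), from 707 to 1111 in control to 340 to 691 in HD libraries without overlap. The most abundant, *Zic1*, was −0.44 (adjusted p 0.172), and *Etv1* (−0.54), *Gabra6* (−0.37), *Fat2* (−0.18) and *Cntn2* (−0.10) were not called. None was at 0. The sum of the striatal projection neuron markers was 80.9, 73.6, 87.8, 74.4 and 108.6 in control and 50.5, 67.1, 68.6, 54.2, 63.1 and 51.6 in HD libraries, without overlap. The part of these markers in the cerebellin result was not tested.

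In cerebellar total RNA, *Cbln3* fell as well, while *Cbln1* was not called. Of the 7 genes 1 was called, down, where 24.5% of all 14477 genes were called (1732 up and 1812 down). The median fold of the 7 was −0.29 against −0.01 over all genes. *Cbln3* was 1801 (median 2004) to 2632 CPM in the 7 control libraries (mean 2113, SD 315) and 1298 (median 1505) to 1823 in the 7 HD libraries (mean 1509, SD 172). All 7 HD libraries were below the control mean and 6 below every control library. The fold was −0.55 (SE 0.119, adjusted p 0.0254). *Cbln1* was 761 (median 1118) to 1323 in control and 793 (median 1113) to 1222 in HD libraries (−0.08, SE 0.113, adjusted p 0.593). The lines differed in direction for *Cbln1*. Its mean was 1228 in control and 980 in HD libraries of the Gad2 line, and 995 and 1163 in the vGluT2 line.

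Within each line the *Cbln3* difference had the same direction. Control Gad2-line libraries were 2057, 2472 and 1956 CPM and HD ones 1369, 1298 and 1612, without overlap (−0.60, adjusted p 1). Control vGluT2-line libraries were 2632, 1868, 2004 and 1801 and HD ones 1505, 1510.1, 1447 and 1823 (−0.53, adjusted p 0.0105). The alternatives' adjusted p for *Cbln3* ran from 0.00104 to 1. The *Cbln3* call was lost without Gad2-line control library 2 (−0.49, 0.05, just over the threshold) or HD library 2 (−0.51, 0.0564). It was also lost without vGluT2-line control library 1 (−0.49, 0.0623), 2 (−0.58, 0.0549) or 3 (−0.57, 0.0531), or vGluT2-line HD library 2 (−0.55, 0.0592) or 3 (−0.53, 0.0597).

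The receptor and neurexin sides came close to the call in cerebellar total RNA, in different directions. *Nrxn2* was 407 (median 580.1) to 721 CPM in control and 509.5 (median 856) to 915 in HD libraries, higher than the control mean in 6 of 7 (0.37, SE 0.136, adjusted p 0.0544). *Grid1* was 33.7 (median 39.5) to 44.9 in control and 29.6 (median 34.6) to 38.3 in HD libraries, lower than the control mean in 7 of 7 (−0.29, SE 0.111, adjusted p 0.0656). *Nrxn3* was 166 (median 228) to 292 in control and 119 (median 169) to 253 in HD libraries, lower in 6 of 7 (−0.49, SE 0.193, adjusted p 0.0708). Over both lines together all 3 overlapped, and all 3 were called by DESeq2 (0.0448, 0.0463 and 0.0438). The line-by-line fits were at the other ends of the ranges (0.0012 to 1 for *Nrxn2*, up to 1 for *Grid1*, 0.00191 to 1 for *Nrxn3*). *Nrxn2* was 0.68 in the vGluT2 line alone and −0.04 in the Gad2 line alone, and *Nrxn3* was −0.81 in the vGluT2 line alone. In the vGluT2 line *Nrxn2* was 407 to 580.1 CPM in control and 766 to 915 in HD libraries. *Nrxn3* was 219 to 292 and 119 to 180 there. Both parted without overlap in the vGluT2 line and overlapped in the Gad2 line.

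With both lines in the fit, the calls of these 3 genes turned on single Gad2-line libraries. *Nrxn2* was called without control library 1 (0.40, 0.0437), control library 3 (0.41, 0.0354) or HD library 3 (0.47, 0.0052). *Grid1* was called without control library 3 (−0.32, 0.0405) or HD library 3 (−0.33, 0.0208). *Nrxn3* was called without control library 1 (−0.60, 0.0264), control library 3 (−0.57, 0.0388) or HD library 3 (−0.62, 0.00871). Over the 14 libraries left out in turn, the highest adjusted p was 0.119, 0.146 and 0.159.

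The count of called genes in cerebellar total RNA also rested on single libraries and on 1 line. It was 3544 in all, 7565 in the vGluT2 line alone and 0 in the Gad2 line alone. It was 302 without Gad2-line control library 2, 118 without HD library 2 and 7408 without HD library 3. Without vGluT2-line control libraries 1 to 4 it was 104, 104, 127 and 143, and without HD libraries 1 to 4 it was 1278, 125, 122 and 96. Leaving out Gad2-line control library 1 or 3 or HD library 1 kept it within 1.5 times the full count.

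Cell type markers differed with genotype in cerebellar total RNA of both lines. The oligodendrocyte sum was lower in HD libraries without overlap, at 3657 to 4270.2 CPM in control and 2721 to 2915 in HD libraries of the Gad2 line, and 4095 to 4824 and 2890.4 to 4061 in the vGluT2 line. So was the Purkinje cell sum, at 2559 to 2943 and 2185 to 2376 in the Gad2 line, and 2606 to 2864 and 1781 to 2495 in the vGluT2 line. The GABAergic sum parted without overlap in the Gad2 line (751 to 805 in control, 621 to 708 in HD libraries) and overlapped in the vGluT2 line. The Golgi cell sum (196 to 259 in control, 125 to 139.5 in HD libraries), *Pvalb* (798 to 1103 and 1143 to 1704) and the striatal projection neuron sum (297 to 364 and 403 to 484) parted without overlap in the vGluT2 line, and overlapped in the Gad2 line. The glutamatergic sum was 662, 585, 749 and 494 CPM in control and 1300.03, 1394, 1240.3 and 1244 in HD libraries. In the Gad2 line it was 909, 758 and 901 against 877, 1106 and 612. The microglial sum was 80.8, 73.5, 85.9 and 81.9 against 143, 131, 141 and 129 in the vGluT2 line. The granule cell sum was 3486, 3029, 2656 and 2617 against 2137, 2477, 1993 and 3019 in the vGluT2 line, and 2341, 3564 and 2708 against 2546, 2055 and 3051 in the Gad2 line. No granule marker of 6 was called by edgeR. *Slc17a7* rose (0.57, adjusted p 0.0371), and the Purkinje and Golgi cell markers *Calb1* (−0.56, adjusted p 0.0309), *Lgi2* (−0.78, adjusted p 0.0280) and *Sorcs3* (−0.44, adjusted p 0.0460) fell. The part of these markers in the results of total RNA was not tested.

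In cerebellar Gad2+ cells, neither cerebellin passed the test, though each was below the control mean in 6 of 6 HD libraries. None of the 7 genes was called by edgeR, where 0.0142% of all genes were called. At an unadjusted p under 0.05 there were 2, and DESeq2 called 0. *Cbln3* was 286 (median 421) to 524 CPM in control and 219 (median 284) to 386 in HD libraries (−0.51, SE 0.171, unadjusted p 0.00913, adjusted p 1). *Cbln1* was 152 (median 218) to 229 in control and 153 (median 164) to 193 in HD libraries (−0.33, SE 0.118, unadjusted p 0.0143, adjusted p 1). Both overlapped. *Grid1*, high in these cells, was 97.4 (median 105) to 127 and 83.3 (median 118) to 129 (0.02, SE 0.125, adjusted p 1). The median fold of the 7 was 0.02 against 0.00, and the granule marker mean sum was 941 in control and 909.9 in HD libraries.

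Whether the HD effect differed between cell types was tested as an interaction for the 2 called genes. None of the 7 genes was called by edgeR in either interaction. Against cerebellar Gad2+ cells, where 0.107% of all genes were called, the HD folds in cerebellar vGluT2+ cells were lower by −0.32 for *Cbln1* (SE 0.189, adjusted p 0.770) and −0.31 for *Cbln3* (SE 0.206, adjusted p 0.795). There 0 of the 7 had an unadjusted p under 0.05 and DESeq2 called 0. Against cerebral vGluT2+ cells, where 0.323% were called, they were lower by −0.90 for *Cbln1* (SE 0.231, unadjusted p 0.000712, adjusted p 0.124) and −2.53 for *Cbln3* (SE 0.922, adjusted p 0.420). There 2 had an unadjusted p under 0.05, and DESeq2 called 1, *Cbln1* (−0.91, adjusted p 0.0167, alternatives up to 0.0980). An HD effect confined to cerebellar vGluT2+ cells is thus not shown for either cerebellin.

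**Figure D2:**
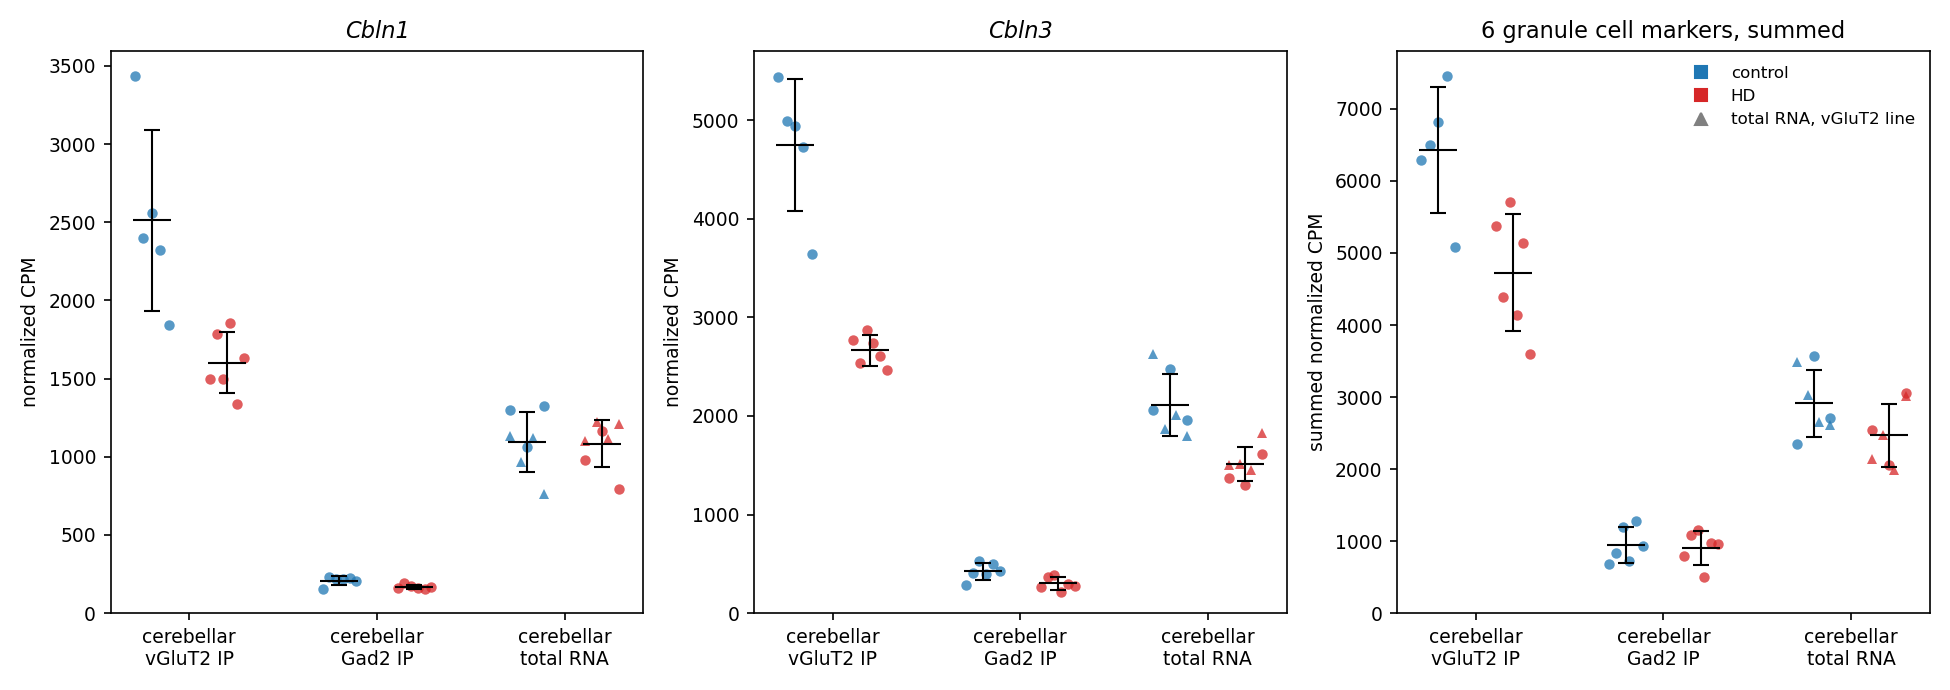
Levels in the cerebellum of control and HD mice (y axis, CPM from 0) by genotype (x axis) in IPs and total RNA; each point is 1 library, triangles are total RNA of the vGluT2 line and circles all other libraries, and the black bar is the mean with SD. In vGluT2+ IPs *Cbln3* is 3638 to 5441 in control and 2467 to 2868 in HD libraries, and *Cbln1* of 5 HD libraries lies below every control library.

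In the cerebrum no gene of the bridge passed the test in any HD comparison. In Gad2+ cells none of the 7 was called by edgeR (0.0279% of all genes), 0 had an unadjusted p under 0.05 and DESeq2 called 0. The median fold was 0.09 against −0.01. *Nrxn2* was 362 (median 435) to 547 CPM in control and 377 (median 542) to 704 in HD libraries (0.26, SE 0.160, adjusted p 0.548). *Nrxn3* was 142 (median 310.5) to 345 and 117 (median 184) to 347 (−0.46, SE 0.302, adjusted p 0.559). *Cbln2* was 17.96 (median 23.9) to 27.2 and 16.2 (median 20.1) to 24.2 (−0.26, SE 0.136, adjusted p 0.543). All overlapped.

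In cerebral vGluT2+ cells none of the 7 was called by edgeR (0.00697% of all genes), 1 had an unadjusted p under 0.05 and DESeq2 called 0. That gene was *Nrxn3*, at 107 (median 207) to 237 CPM in control and 81.2 (median 141) to 169 in HD libraries, below the control mean in 6 of 6 (−0.51, SE 0.206, unadjusted p 0.0267, adjusted p 0.677). *Cbln2* was 46.3 (median 51.5) to 65.9 and 27.9 (median 46.7) to 55.3 (−0.28, SE 0.152, adjusted p 0.687). *Cbln1* was 47.4 (median 55.8) to 66.6 and 45.9 (median 58.98) to 106 (0.29, SE 0.171, adjusted p 0.687). HD libraries 1 and 4 were highest in *Cbln1* (106 and 84.4) and in *Cbln3* (30.8 and 26.8). The median fold was −0.13 against −0.02.

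In PV+ cells none of the 7 was called by edgeR (0.034% of all genes), 0 had an unadjusted p under 0.05 and DESeq2 called 0. *Cbln1* was 49.8 (median 62.6) to 94.6 CPM in control and 50.8, 49.5, 150.1, 49.5 and 55.1 in HD libraries 1, 2, 3, 5 and the re-sequenced one (0.09, SE 0.295, adjusted p 1). *Cbln3* was 2.28 (median 8.26) to 88.8 and 2.21, 0.713, 203, 1.67 and 2.08 in the same order (0.96, SE 1.38, adjusted p 1). Library 3 alone was high in both, and without it the folds were −0.39 and −3.68. The median fold was −0.06 against 0.00.

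In SST+ cells none of the 7 was called by edgeR (0% of all genes, of which 207 had an unadjusted p under 0.05 and DESeq2 called 2). Of the 7 genes 0 had an unadjusted p under 0.05 and DESeq2 called 0. The median fold was −0.12 against 0.01. *Cbln4*, highest in these cells, was 36.5, 39.3, 28.9, 29.8 and 29.6 CPM in control and 33.6, 29.4, 33.0 and 24.3 in HD libraries (−0.11, SE 0.161, adjusted p 1). *Nrxn3* was 284, 289, 213, 252 and 329.6 in control and 227, 261, 243 and 132 in HD libraries (−0.33, SE 0.215, adjusted p 1).

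In cerebral total RNA of the Gad2, PV and vGluT2 lines none of the 7 was called by edgeR (0.141% of all genes), 0 had an unadjusted p under 0.05 and DESeq2 called 0. The lowest adjusted p of the 7 was 0.861. *Cbln3* was 1.5003 (median 2.18) to 53.6 CPM in control and 0.365 (median 1.56) to 64.0 in HD libraries (0.30, SE 1.02), and −0.59 without Gad2-line or −0.89 without PV-line HD library 2. The median fold was −0.02 against 0.02. The count of 21 called genes ran from 4 to 43 over libraries left out in turn. It was 119 in DESeq2, 96 with the SST line added and lower than 4 in each of the 3 lines alone.

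**Figure D3:**
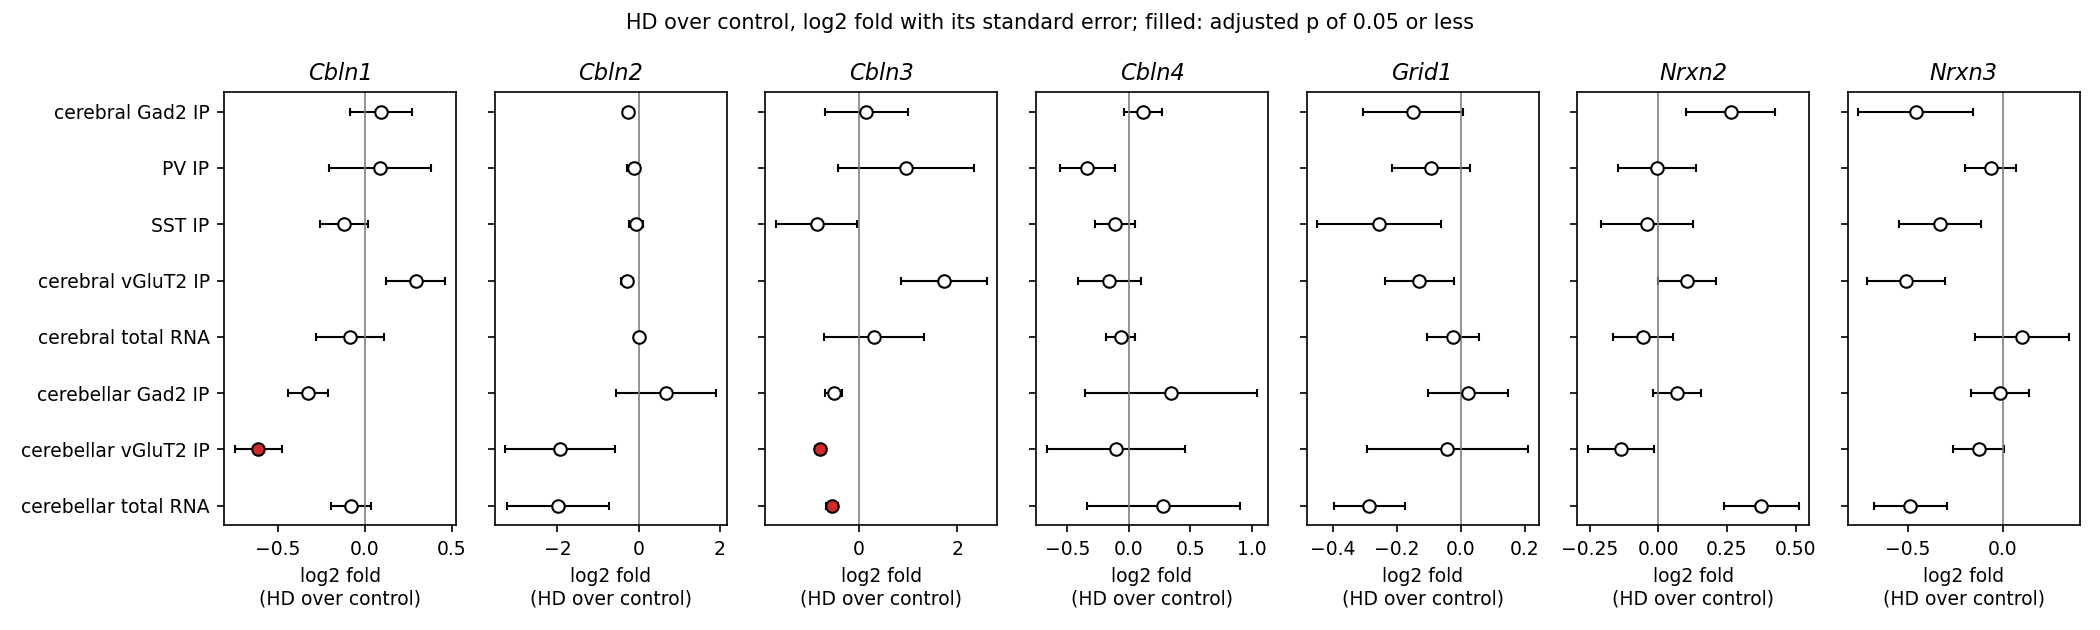
HD against control log2 fold with SE (x axis, each panel with its own scale) of each of the 7 genes in the 6 IPs and in total RNA of both regions (y axis); red filled points have an adjusted p of 0.05 or less. The 3 filled points are *Cbln3* (−0.80) and *Cbln1* (−0.61) in the cerebellar vGluT2+ IP and *Cbln3* (−0.55) in cerebellar total RNA.

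Lists of related synaptic organizers put these results in context. They hold 17 other partners of neurexins, 5 C1q-like ligands with their receptor, and 26 other trans-synaptic organizers. In cerebellar vGluT2+ cells 1 of 16 tested neurexin partners fell, 0 of 5 C1q-like genes were called by edgeR (1 at an unadjusted p under 0.05, DESeq2 called 0) and 1 of 26 other organizers rose, where 2.11% of all genes were called. DESeq2 called 1 of the partners and 3 of the other organizers. Their median folds were −0.01, −0.19 and −0.02 against −0.01 over all genes. The partner was *Clstn2*, a calsyntenin of the postsynaptic membrane. It was 49.6, 54.3, 51.4, 61.4 and 60.9 CPM in control and 13.1 (median 19.5) to 27.0 in HD libraries, without overlap (−1.47, SE 0.161, adjusted p 0.000386). *Clstn2* was also called in both interactions, by −1.29 against cerebellar Gad2+ cells (adjusted p 0.00133) and −1.35 against cerebral vGluT2+ cells (adjusted p 0.000424).

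The organizer that rose was *Slitrk3*, a postsynaptic adhesion protein of inhibitory synapses. It was 10.3, 13.6, 11.2, 10.02 and 15.6 CPM in control and 15.9 (median 20.5) to 23.6 in HD libraries, without overlap (0.75, SE 0.166, adjusted p 0.0335). Its HD fold was higher than in cerebral vGluT2+ cells by 1.05 (adjusted p 0.0303), and against cerebellar Gad2+ cells the difference of 0.60 was not called (adjusted p 0.528). The call was lost with the replicate block (0.0737) and the *Xist* covariate (0.105), over alternatives from 0.00166. It was lost without control library 1 (0.69, 0.0958), 2 (0.78, 0.0601), 3 (0.71, 0.0908) or 4 (0.69, 0.0772), or HD library 3 (0.73, 0.0607), 5 (0.70, 0.0770) or 6 (0.70, 0.0556).

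In cerebellar total RNA the lists were called at a share near that of all genes, 24.5%. Of 16 neurexin partners 3 rose and 1 fell, of 5 C1q-like genes 1 rose, and of 26 other organizers 1 rose and 7 fell, with medians of 0.10, −0.39 and −0.27 against −0.01. *Clstn2* fell again, from 35.8 (median 39.4) to 46.4 CPM in control to 20.6 (median 25.5) to 28.4 in HD libraries (−0.79, adjusted p 0.00192). The largest of the 13 calls were *Flrt2*, *C1ql1*, *Ptprd*, *Il1rap* and *Ntng1*. *Flrt2* was 6.33 (median 16.8) to 21.7 in control and 4.18 (median 4.83) to 12.0 in HD libraries (−1.44, adjusted p 0.0279). *C1ql1*, the C1q-like ligand of climbing fibres, was 3.61 (median 4.005) to 5.30 and 6.01 (median 7.36) to 20.1 without overlap (1.05, adjusted p 0.0217). *Ptprd* (−0.995, adjusted p 0.0294), *Il1rap* (−0.87, adjusted p 0.0280) and *Ntng1* (−0.82, adjusted p 0.0229) fell.

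None of these 5 calls held in the Gad2 line alone, and each was lost without single libraries. In the vGluT2 line, leaving out control library 1 gave adjusted p of 0.0651 for *Flrt2*, 0.0623 for *C1ql1*, 0.0658 for *Ptprd*, 0.0658 for *Il1rap* and 0.0586 for *Ntng1*. Control library 3 gave 0.0538 for *Flrt2*, *Ptprd*, *Il1rap* and *Ntng1* and 0.0526 for *C1ql1*. HD library 4 gave 0.0646, 0.0574, 0.0665, 0.0646 and 0.0621 in the order first named. Control library 2 (0.0638, 0.0634, 0.0650, 0.0649) and control library 4 (0.0616, 0.0526, 0.0637, 0.0626) ended the calls of *Flrt2*, *C1ql1*, *Ptprd* and *Il1rap*. HD library 2 (0.0650, 0.0680, 0.0657, 0.0592) and HD library 3 (0.0644, 0.0671, 0.0653, 0.0572) ended those of *Flrt2*, *Ptprd*, *Il1rap* and *Ntng1*. Gad2-line control library 2 (0.0533, 0.0555, 0.0551) and HD library 2 (0.0590, 0.0604, 0.0604) ended those of *Flrt2*, *Ptprd* and *Il1rap*, and vGluT2-line HD library 1 that of *Ptprd* (0.0534). The alternatives' adjusted p ran from 5.24e-05, the lowest for *Ptprd*, to 1.

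In the other 6 HD comparisons edgeR called 0 genes of the 3 lists, and DESeq2 also called 0. At an unadjusted p under 0.05 the cerebral Gad2+ and cerebral vGluT2+ IPs each had 5 of 48, against 1313 of 14342 and 1045 of 14354 over all genes. The PV IP had 3 of 48 (all genes 630 of 14713), the SST IP 0 of 48 (207 of 14689), the cerebellar Gad2+ IP 1 of 46 (324 of 14098) and cerebral total RNA 2 of 48 (984 of 14871). The lowest list median was −0.25, for the other organizers in cerebral Gad2+ cells, and the highest was 0.11, for the C1q-like genes in cerebellar Gad2+ cells.

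Promoter bases are shown for *Cbln3*, which carries the HD result, and for *Cbln4* as a cerebellin of the cerebrum. RefSeq windows of 250 bases before the start (GRCm38.p6) held entries for 3 of the 7 genes. The line for *Cbln3* is chr14:55884393-55884506 on the minus strand, the 114 bases of its window that lie upstream of the GENCODE gene, and the line for *Cbln4* is chr2:172043467-172043716 on the minus strand. Capitals mark the motif matches.
Cbln3: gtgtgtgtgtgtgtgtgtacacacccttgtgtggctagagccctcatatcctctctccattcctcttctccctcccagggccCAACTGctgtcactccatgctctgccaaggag
Cbln4: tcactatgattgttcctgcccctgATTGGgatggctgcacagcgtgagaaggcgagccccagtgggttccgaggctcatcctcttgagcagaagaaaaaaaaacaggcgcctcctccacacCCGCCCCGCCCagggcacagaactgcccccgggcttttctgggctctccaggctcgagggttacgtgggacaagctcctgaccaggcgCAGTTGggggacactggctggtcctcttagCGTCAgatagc
*Cbln3* holds 1 match in its whole window, at bases 83 to 88, to CAGNTG or CANCTG, which 44.8% of 32851 windows hold. *Cbln4* holds that motif at bases 210 to 215, CCAAT or ATTGG at 25 to 29 (33.8% of windows), GGGCGG or CCGCCC at 122 to 127 and 127 to 132 (32.7%) and TGACG or CGTCA at 240 to 244 (17.8%). Neither holds CAGCTG, a form of CAGNTG (13%), nor TATAAA or TTTATA (12.4%). The windows are 57.6% and 60.8% G and C, against a median of 52.4%. A match is a description of letters, not a site or a cause.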

How the data were processed

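The deposited table holds expected or estimated counts per gene, which the authors obtained from Salmon after STAR alignment (nf-core/rnaseq, GRCm38.p6), and 8.57% of its values were not whole. All 106 columns matched a labelled library, 92 spike-ins were left out, and counts were rounded. Genes were annotated with GENCODE M21.

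Among protein-coding genes, those averaging over 10 counts across the libraries of a comparison were tested with edgeR 4.0.16 (TMM, quasi-likelihood, 2-sided, R 4.3.3), with Benjamini-Hochberg adjustment over all genes tested and a threshold of 0.05. SE is the absolute log2 fold over the square root of F. Total RNA fits held the Cre line, and IP against total RNA held genotype. Levels are CPM with TMM over all libraries, while tests used TMM within the comparison, so the ratio of mean levels can differ from a fold. Intervals and low counts cover the spread of libraries and not the capture of other cells' RNA.

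Alternatives were DESeq2 1.42.0, its size factors in edgeR, no TMM, no filter, filterByExpr, all gene types, replicate number as a block, an *Xist* covariate, lines alone or added, the mouse as a block, HD in place of control mice, and libraries left out in turn. In IP against total RNA only the IPs were left out in turn, and none was left out of the interactions. Same-number HD and control libraries had median correlations from −0.123 in PV+ to 0.579 in cerebral Gad2+ cells (0.037 in cerebellar vGluT2+ cells), and were the best match in 3 of 6 pairs of cerebral Gad2+ cells and in fewer elsewhere. Replicate number was a block only among the alternatives. By their labels, IPs and total RNA, and regions, share mice. The procedure was tested on simulated data.

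Named are the 7 genes, in each HD comparison the called list genes (at most the 5 with the largest absolute fold), and for each of the 7 the 2 genes with the highest correlation over control group means, among genes reaching 5 CPM. Other genes named are markers from the lists. *Clstn2* in total RNA was named after its value was seen. The members and lists were chosen with earlier results of these data known. Other genes of the GluD and neurexin families are not reported here.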

Additional observations from a re-analysis of the deposited data

Results flagged for a closer look

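Of 105 groups of 4 to 6 libraries in which 1 of the 7 genes was examined, 15 held a library far from the rest by Dixon's criterion at 95%. Chance flags about 1 in 20 groups. The causes were not tested.

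*Cbln3* was high in single cerebral IPs: 203 CPM in HD PV library 3 (others 0.713 to 2.21), 88.8 in control PV library 2 (others 2.28 to 18.6) and 23.3 in HD SST library 2 (others 1.18 to 2.77). HD PV library 3 was also apart in *Cbln1*, at 150.1 CPM (others 49.5 to 55.1). In the cerebellum, vGluT2-line HD total RNA library 4 held 1823 CPM of *Cbln3* (others 1447 to 1510.1), and control Gad2 IP library 1 held 152 CPM of *Cbln1* (others 206 to 229).

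*Cbln2*, low in the cerebellum, reached 25.2 CPM in control vGluT2 IP library 5 (others 0.0306 to 2.74) and 15.6 in vGluT2-line control total RNA library 4 (others 0.0699 to 1.03). It reached 7.44 in HD vGluT2 IP library 5 (others 0 to 1.89) and 2.20 in control Gad2 IP library 5 (others 0 to 0.4665). *Cbln4* was high in 2 of the same libraries, at 6.22 CPM in vGluT2-line control total RNA library 4 (others 0.583 to 1.07) and 3.96 in control Gad2 IP library 5 (others 0.191 to 1.05).

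*Nrxn2* was low in vGluT2-line cerebellar HD total RNA library 1, at 766 CPM (others 889.8 to 915), and high in cerebral vGluT2 HD library 1, at 771 (others 465 to 572). *Nrxn3* was low in cerebellar Gad2 HD library 4, at 231 CPM (others 386 to 442).

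Among list genes called in HD cerebellar vGluT2+ cells, *Clstn2* had an HD effect that differed between groups in both interaction tests and *Slitrk3* in 1 of them. For *Clstn2* the HD fold differed by −1.29 from that in cerebellar Gad2+ cells (adjusted p 0.00133) and by −1.35 from that in cerebral vGluT2+ cells (adjusted p 0.000424). For *Slitrk3* it was higher by 1.05 than in cerebral vGluT2+ cells (adjusted p 0.0303), and the difference of 0.60 from cerebellar Gad2+ cells was not called (adjusted p 0.528).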

How the results depend on the processing

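Over all alternatives but left-out libraries, 906 results were the same. In these a tested gene kept its direction and side of the threshold, or a count stayed within 1.5 times. Of the others, 21 passed the threshold, 29 no longer passed it, 42 changed sign, and 32 counts or untested values moved. For libraries left out in turn the numbers were 1840, 26, 86, 59 and 65. The cause was not tested for any of them. *Cbln3* in the HD cerebellar vGluT2+ IP kept its direction and call under every alternative run. Few counts limit cerebral *Cbln3* and cerebellar *Cbln2* and *Cbln4*. For 9 results an alternative gave no adjusted p, 1 of them because the filter removed the gene. All values below are log2 folds or counts of called genes.

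With DESeq2 the HD counts were 75 in cerebral Gad2+, 42 in PV+, 2 in SST+, 25 in cerebral vGluT2+, 22 in cerebellar Gad2+ and 663 in cerebellar vGluT2+ cells, 119 in cerebral total RNA, and 67 and 126 for the interactions against cerebellar Gad2+ and cerebral vGluT2+ cells. *Nrxn2* in HD PV+ cells was 0.00624 and *Cbln3* in SST+ IP against total RNA −0.0203. The pairing check was uneven. Its median correlations were 0.579 in cerebral Gad2+, 0.49 in cerebellar Gad2+ and 0.357 in cerebral vGluT2+ cells. They were 0.037 in cerebellar vGluT2+, −0.055 in SST+ and −0.123 in PV+ cells. With the replicate block HD counts were 9 in cerebral Gad2+, 109 in cerebellar vGluT2+ and 0 in PV+, cerebral vGluT2+ and cerebellar Gad2+ cells. The block gave *Cbln3* −0.25 in cerebral Gad2+ and −0.55 in PV+ cells, *Cbln4* 0.0608 in cerebral vGluT2+ cells, and *Cbln1* −0.61 (not called) and *Grid1* 0.0529 in cerebellar vGluT2+ cells. With the *Xist* covariate HD counts were 1 in PV+, 0 in cerebral vGluT2+ and cerebellar Gad2+ and 178 in cerebellar vGluT2+ cells. It gave *Cbln1* −0.00982 and *Cbln3* −0.29 in PV+ cells, *Nrxn2* 0.0137 in SST+ cells, *Grid1* −0.0276 in cerebellar Gad2+ cells and *Cbln1* −0.62 (not called) in cerebellar vGluT2+ cells.

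DESeq2 size factors gave HD counts of 0 in cerebral vGluT2+ and 1 in cerebellar Gad2+ cells, *Nrxn2* 0.00626 in HD PV+ cells and *Cbln3* −0.0251 in SST+ IP against total RNA. No filter gave the same 0 and 1, *Nrxn2* 0.00882 in PV+ cells and *Cbln1* −0.60 (not called) in cerebellar vGluT2+ cells. filterByExpr gave *Nrxn2* 0.00166 in PV+ cells. All gene types gave counts of 0 in cerebral vGluT2+ and cerebellar Gad2+ cells. Without the re-sequenced library the count in cerebellar Gad2+ cells was 0, *Grid1* there −0.00492 and *Cbln4* in cerebral vGluT2+ cells 0.0241.

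In HD cerebral total RNA, adding the SST line gave a count of 96 and *Cbln2* −0.0298. The Gad2 line alone gave 0, *Cbln2* −0.0456, *Cbln3* −0.0720 and *Nrxn3* −0.0376. The PV line alone gave 0, *Cbln2* −0.0182, *Cbln1* 0.0486, *Nrxn2* 0.0212 and *Nrxn3* −0.11. The vGluT2 line alone gave 0, *Cbln3* −0.71 and *Grid1* 0.0344. In HD cerebellar total RNA the Gad2 line alone gave 0, *Nrxn2* −0.0357 and *Cbln3* −0.60 (not called), and the vGluT2 line alone 7565 and *Cbln1* 0.10.

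For IP against total RNA, the mouse block gave a count of 6134 in cerebral vGluT2+ cells, *Cbln4* −0.0875 in PV+, and *Cbln3* −0.30 in SST+ and 0.98 in cerebral vGluT2+ cells. Total RNA of the same line gave *Nrxn2* 0.0243 in cerebral Gad2+, *Cbln3* −0.48 in SST+ and 1.36 in cerebral vGluT2+, and *Cbln2* 0.0425 in cerebellar Gad2+ cells. No TMM gave *Nrxn2* 0.0507 and added SST totals gave *Cbln3* −0.16 in SST+ cells. HD mice gave *Cbln4* −0.15 between cerebral vGluT2+ and Gad2+ cells, *Grid1* 0.0891 and *Nrxn3* 0.14 between PV+ and SST+ cells, and *Nrxn2* −0.30 and *Nrxn3* 0.195 between PV+ and Gad2+ cells.

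Over libraries left out in turn, HD counts ran from 3 to 12 in cerebral Gad2+, 0 to 4 in PV+, 0 to 1 in SST+ and cerebral vGluT2+, 0 to 3 in cerebellar Gad2+ and 149 to 255 in cerebellar vGluT2+ cells, 4 to 43 in cerebral and 96 to 7408 in cerebellar total RNA. *Cbln3* ran from −0.92 to 0.58 in HD cerebral Gad2+ cells. In HD PV+ cells *Cbln1* ran from −0.39 to 0.22, *Nrxn2* from −0.10 to 0.0654, *Cbln3* from −3.68 to 2.43 and *Nrxn3* from −0.15 to 0.0146. In HD SST+ cells *Cbln2* ran from −0.16 to 0.0435 and *Nrxn2* from −0.12 to 0.0717, and in cerebral vGluT2+ cells *Cbln4* from −0.26 to 0.0241. In HD cerebellar Gad2+ cells *Cbln2* ran from −0.32 to 2.50, *Grid1* from −0.0184 to 0.10, *Nrxn3* from −0.0747 to 0.0956 and *Cbln4* from −0.26 to 1.297. In HD cerebellar vGluT2+ cells *Cbln2* ran from −3.70 to 0.56, *Cbln1* from −0.69 to −0.48, *Grid1* from −0.21 to 0.19 and *Cbln4* from −0.47 to 0.28. In HD cerebral total RNA *Cbln2* ran from −0.0396 to 0.0520, *Cbln1* from −0.26 to 0.00604, *Cbln3* from −0.89 to 1.20, *Grid1* from −0.0623 to 0.0173 and *Nrxn3* from −0.0157 to 0.22. In cerebellar total RNA *Cbln3* ran from −0.61 to −0.49 and *Cbln4* from −0.31 to 1.07. In IP against total RNA *Cbln3* ran from −0.0216 to 1.59 in PV+ and −0.40 to 0.20 in SST+ cells and *Cbln2* from −0.34 to 0.87 in cerebellar vGluT2+ cells. In controls *Grid1* ran from −0.15 to 0.0213 between cerebral vGluT2+ and Gad2+ cells, *Cbln3* from −0.73 to 1.01 between PV+ and SST+ cells, and *Nrxn2* from −0.0496 to 0.15 between PV+ and Gad2+ cells and −0.10 to 0.0155 between Gad2+ regions.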

Other observations

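The neurexins tended to part ways within groups. In 15 of the 24 groups of libraries, the library with the most *Nrxn2* was the one with the least *Nrxn3*, as in cerebral vGluT2+ HD library 1, with 771 CPM of *Nrxn2* and 81.2 of *Nrxn3*. Small groups give such matches by chance, and 9 of the 24 held 3 libraries. No correlation is given, since several groups held fewer than 6 libraries, and the pattern was noticed after the values were seen.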
